A study of Homo sapiens with 8 samples.

Results

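The genes described here are the nuclear genes of the mitochondrial ribosome, read in 2 human myeloma cell lines with and without a hairpin against the deacetylase SIRT6. Members were all genes of the array table whose annotated symbol is MRPL or MRPS followed by a number, with pseudogenes left out and the row of highest mean taken for each gene. This gave 73 genes of the 14884 named genes in the table, from 82 rows, of which 50 encode proteins of the large subunit and 23 proteins of the small subunit. MRPS30 and MRPS18A were counted with the large subunit, where their proteins sit despite their names. MRPL12, MRPS6, MRPS24, MRPS18C and MRPS36 had no named row and were not analysed here. All 73 members passed the filter on low levels.

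The study hybridised RNA from 4 groups of 2 arrays each to whole-transcript gene arrays: NCI-H929 with shSIRT6, NCI-H929 with a scramble hairpin, MM1.S with shSIRT6, and MM1.S with a scramble hairpin. Both lines are plasma cell lines grown from patients with multiple myeloma and are kept as standard cultures, NCI-H929 with the translocation that raises FGFR3 and NSD2 and MM1.S with the one that raises MAF. All were grown in the same serum-containing medium, and the labels give 1 silencing condition with no hairpin sequence, so an effect of the target and an effect of the hairpin cannot be told apart. RNA was taken in duplicate, and no label says that the duplicates were independent cultures. The p-values below rest on the spread between the 2 arrays within a group, pooled over the 4 groups and moderated over all genes. That spread may be technical. Values are log2 levels after RMA, the standard background correction, normalization and summary of such arrays. A difference of 1 on this scale is a 2-fold difference, and levels of different genes are not set against each other because each gene has its own probes.

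Array medians over all rows lay between 3.88 and 3.97, and arrays of 1 group correlated at 0.989 to 0.992, against 0.942 to 0.95 between the lines. FGFR3 and NSD2 were higher and MAF was lower in NCI-H929 with both constructs. The 8 plasma cell markers with a row averaged 8.83 to 9.13, T and NK cell markers 4.22 to 4.57, stromal markers 3.43 to 4.06, monocyte markers 3.49 to 3.91 and epithelial markers 5.03 to 5.5 over the 8 arrays. The lists were mixed: the plasma cell markers POU2AF1 and CD27 read 5.19 to 5.48 and 4.81 to 5.31. The epithelial marker KRT18 read 7.73 to 8.14, and the stromal marker FN1 read 5.78 to 6.79 in MM1.S. As each gene has its own probes, these averages describe levels and do not measure shares of cells. SIRT6 itself read 6.25 and 6.31 on the NCI-H929 shSIRT6 arrays, against 6.53 and 6.97 on the NCI-H929 scramble arrays. In MM1.S it read 5.60 and 5.78 with shSIRT6, against 6.09 and 5.88 with scramble. The arrays did not overlap in either line, but neither difference passed the test across all genes (log2 difference -0.47 ± 0.161 in NCI-H929 and -0.295 ± 0.161 in MM1.S, SE, limma adjusted p = 0.276 and 0.355).

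The mitochondrial ribosome makes the handful of proteins encoded by mitochondrial DNA, all of them membrane subunits of the oxidative phosphorylation complexes. Its rRNAs come from mitochondrial DNA, while every one of its proteins is encoded in the nucleus, translated in the cytosol and imported. Part of these proteins descend from bacterial ribosomal proteins and part were added in the mitochondrial lineage. Myeloma cells secrete immunoglobulin at a high rate and depend on mitochondrial ATP for it, and mitochondrial translation has been studied as a drug target in blood cancers.

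Of the 73 members, 41 were homologues of bacterial proteins, 29 were specific to mitochondria, and MRPS18A, MRPS18B and MRPL55 were kept outside both classes. By place on the ribosome, the members included 5 of the stalk and its base, 8 around the exit of the peptide tunnel, 7 of the central protuberance, 4 of the decoding centre and the mRNA path, and 6 of the small subunit's head. The spread between the 2 arrays of a group was small for most members: the median SD was 0.0707 in NCI-H929 shSIRT6, 0.0566 in NCI-H929 scramble, 0.0566 in MM1.S shSIRT6 and 0.0636 in MM1.S scramble. MRPL43, a large-subunit protein specific to mitochondria, had the highest SD of any member in NCI-H929, 0.467 with shSIRT6 and 0.495 with scramble.

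Promoter sequence is a feature that the choice of members did not use. RefSeq promoters (build GRCh38.p14, 250 bases before to 50 bases after each gene's start) were matched for 65 of the 73 members by symbol, and 3 motifs were searched for on both strands. These were CCGGAAG, the core bound by ETS factors such as the nuclear respiratory factor GABP, GCGCANGCG for nuclear respiratory factor 1, and AANATGGCG for YY1. The ETS letters stood in 28 of the 65 member promoters (43.1%), against 16.2% of the 9530 promoters of genes tested and 10.7% of all 27305 promoters. The YY1 letters stood in 17 member promoters (26.2%), against 5.7% of the promoters of genes tested and 3.37% of all. The NRF1 letters stood in 12 (18.5%), against 12.3% and 8.05%. At least 1 of the 3 was present in 46 of the 65 members (70.8%), against 29.5% of the promoters of genes tested and 19.2% of all. ETS and YY1 letters stood together in 4 member promoters, those of MRPL38, MRPL52, MRPS10 and MRPS18A, and overlapped in none of them. Median GC content was 60.3% in member promoters, 64.0% in those of genes tested and 58.3% in all promoters. A match describes the letters only and is not a measured binding site.

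The following promoters are shown because their genes stood at either end of the difference between the lines described below, or because they hold both ETS and YY1 letters. All are from RefSeq, GRCh38.p14, read along the gene's strand, with motif matches in capitals. MRPS21 (chr1:150293611-150293910, plus strand), MRPL4 (chr19:10251701-10252000, plus strand) and MRPL36 (chr5:1799788-1800087, minus strand) were among the members higher in NCI-H929. MRPS33 (chr7:141014903-141015202, minus strand), MRPL47 (chr3:179604589-179604888, minus strand) and MRPL51 (chr12:6493213-6493512, minus strand) were among those lower there. MRPL38 (chr17:75904835-75905134, minus strand) and MRPL52 (chr14:22829637-22829936, plus strand) hold both kinds of letters.
MRPS21: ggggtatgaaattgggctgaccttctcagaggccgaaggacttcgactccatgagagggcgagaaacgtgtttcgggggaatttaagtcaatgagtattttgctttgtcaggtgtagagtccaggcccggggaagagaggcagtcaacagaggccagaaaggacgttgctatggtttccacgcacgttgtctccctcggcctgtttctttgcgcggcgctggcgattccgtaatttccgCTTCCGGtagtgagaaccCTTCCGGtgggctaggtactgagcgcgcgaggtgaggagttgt
MRPL4: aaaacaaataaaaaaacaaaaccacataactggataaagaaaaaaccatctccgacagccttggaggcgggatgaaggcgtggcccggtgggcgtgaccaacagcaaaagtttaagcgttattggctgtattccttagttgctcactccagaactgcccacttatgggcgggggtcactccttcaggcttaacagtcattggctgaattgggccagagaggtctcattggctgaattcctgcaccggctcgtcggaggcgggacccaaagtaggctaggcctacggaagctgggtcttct
MRPL36: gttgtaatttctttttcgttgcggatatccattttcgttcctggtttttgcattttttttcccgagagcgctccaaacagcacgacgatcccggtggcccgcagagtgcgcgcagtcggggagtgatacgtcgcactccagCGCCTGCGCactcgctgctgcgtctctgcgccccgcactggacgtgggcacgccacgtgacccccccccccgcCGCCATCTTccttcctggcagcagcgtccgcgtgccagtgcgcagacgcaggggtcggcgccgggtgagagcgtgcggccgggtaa
MRPS33: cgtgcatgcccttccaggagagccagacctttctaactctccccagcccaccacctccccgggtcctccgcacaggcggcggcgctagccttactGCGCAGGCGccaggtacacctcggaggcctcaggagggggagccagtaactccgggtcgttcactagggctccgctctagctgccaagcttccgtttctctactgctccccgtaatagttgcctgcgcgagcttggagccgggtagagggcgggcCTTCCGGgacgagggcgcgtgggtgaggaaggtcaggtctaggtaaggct
MRPL47: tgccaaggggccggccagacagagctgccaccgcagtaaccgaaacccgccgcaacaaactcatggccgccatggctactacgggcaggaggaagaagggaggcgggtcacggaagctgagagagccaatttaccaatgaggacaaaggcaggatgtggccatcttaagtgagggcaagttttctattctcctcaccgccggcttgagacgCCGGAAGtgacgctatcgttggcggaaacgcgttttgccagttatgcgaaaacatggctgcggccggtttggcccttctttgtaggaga
MRPL51: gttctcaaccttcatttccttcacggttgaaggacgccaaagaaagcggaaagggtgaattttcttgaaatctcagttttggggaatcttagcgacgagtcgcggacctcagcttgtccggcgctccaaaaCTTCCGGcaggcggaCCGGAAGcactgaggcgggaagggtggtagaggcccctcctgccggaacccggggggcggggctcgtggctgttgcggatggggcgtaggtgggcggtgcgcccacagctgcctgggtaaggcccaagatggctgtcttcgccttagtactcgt
MRPL38: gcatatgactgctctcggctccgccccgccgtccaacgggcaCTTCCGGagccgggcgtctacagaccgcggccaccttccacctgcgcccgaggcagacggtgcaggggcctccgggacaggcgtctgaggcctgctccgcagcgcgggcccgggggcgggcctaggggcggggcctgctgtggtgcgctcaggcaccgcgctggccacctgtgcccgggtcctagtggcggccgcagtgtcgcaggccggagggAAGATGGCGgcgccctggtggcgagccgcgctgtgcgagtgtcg
MRPL52: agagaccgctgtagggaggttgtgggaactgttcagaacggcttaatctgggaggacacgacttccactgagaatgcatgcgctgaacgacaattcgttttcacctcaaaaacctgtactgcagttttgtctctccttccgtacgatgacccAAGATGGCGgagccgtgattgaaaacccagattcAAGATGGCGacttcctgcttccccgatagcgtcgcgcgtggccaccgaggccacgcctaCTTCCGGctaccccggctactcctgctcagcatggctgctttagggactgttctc
The capitals mark 2 ETS matches in MRPS21 and MRPL51 and 1 in MRPL47. MRPL36 holds an NRF1 and a YY1 match, MRPS33 an NRF1 and an ETS match, MRPL38 an ETS and a YY1 match, MRPL52 an ETS and 2 YY1 matches, and MRPL4 none of the 3. ETS letters thus stood in promoters of members from both ends of the line difference. Of the members called higher in NCI-H929 with both constructs, 9 of 12 with a promoter held at least 1 motif, and of those called lower, 4 of 5 did.

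The largest differences among the members were between the lines. With shSIRT6, 20 of the 73 members were higher in NCI-H929 than in MM1.S and 12 were lower at a limma adjusted p below 0.05, against 18.4% of the 12734 genes tested called higher and 19.5% called lower. With scramble, 26 members were higher and 7 lower, against 20.0% and 18.3% of the genes tested. The median log2 difference over the members was 0.105 with shSIRT6, against 0 over all genes tested, and 0.195 with scramble, against 0.03 over all genes. In bulk RNA a lower level in every cell and a smaller share of cells with the RNA cannot be told apart. The share of members called in either direction was 43.8% with shSIRT6 and 45.2% with scramble, beside 37.9% and 38.3% of all genes tested. The members thus stood near the background in how often they differed, and above it in the share that was higher in NCI-H929. Both subunits showed it with scramble, where 20 large-subunit members were called higher and 5 lower, and 6 small-subunit members higher and 2 lower. With shSIRT6 the counts were 12 higher and 7 lower in the large subunit, and 8 higher and 5 lower in the small subunit.

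**Figure D1:**
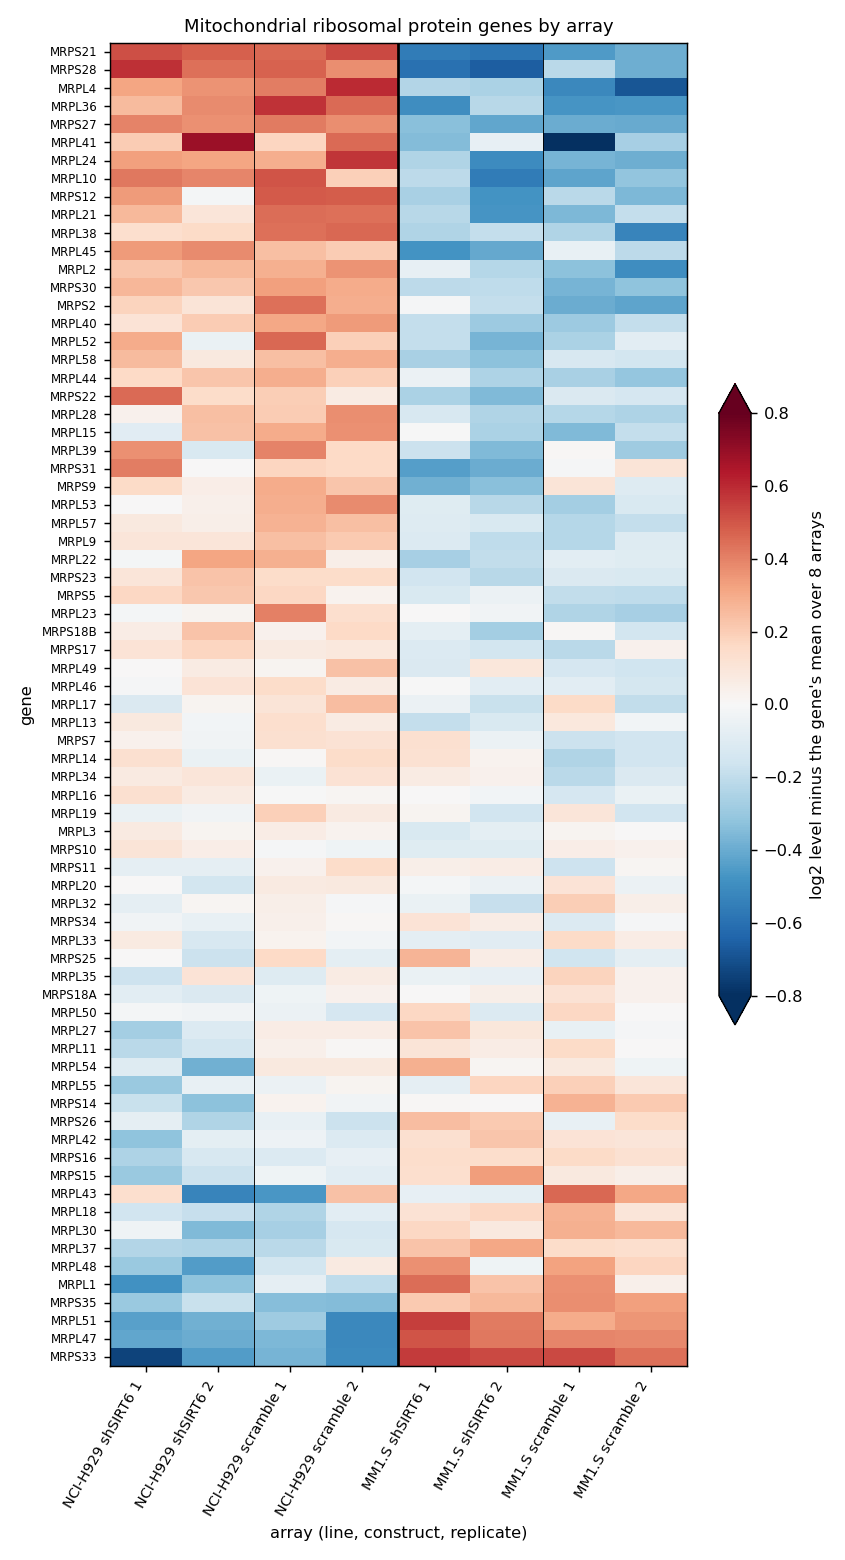
Log2 level of each of the 73 members (rows) on each of the 8 arrays (columns, grouped by line and construct), as the difference from that gene's mean over the 8 arrays, in colour. Red cells lie mostly on the NCI-H929 side at the top, where 29 members have all 4 NCI-H929 arrays above all 4 MM1.S arrays, and blue cells on that side at the bottom, where 11 members have them all below.

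The sets of arrays behind these line differences share none. In 29 members (39.7%) all 4 NCI-H929 arrays lay above all 4 MM1.S arrays, against 21.2% of the genes tested. In 11 members (15.1%) all 4 lay below, against 20.2%. Differences with the 2 constructs had Pearson's r = 0.852 and Spearman's rho = 0.846 over the 73 members, beside 0.904 and 0.783 over all 12734 genes tested, with genes as points that share arrays. They had the same sign in 61 members (83.6%), against 75.8% of all genes. In the map of members by array, the block of members with higher levels in NCI-H929 is the larger.

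Called in the same direction with both constructs were 21 members, which are 65.6% of the 32 called with shSIRT6 and 63.6% of the 33 called with scramble. Of these, 16 were higher in NCI-H929 (21.9% of the members, against 14.5% of the genes tested) and 5 were lower (6.85%, against 14.3%). Together they were 28.8% of the members, the same share as in the genes tested. The 16 were MRPL2, MRPL4, MRPL10, MRPL21, MRPL24, MRPL36, MRPL38, MRPL40, MRPL44, MRPL45, MRPL58, MRPS12, MRPS21, MRPS27, MRPS28 and MRPS30. The 5 were MRPL37, MRPL47, MRPL51, MRPS33 and MRPS35. A further 11 members were called with shSIRT6 alone and 12 with scramble alone, and 29 with neither.

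In the small subunit, MRPS21, the homologue of bacterial bS21, read 11.22 and 11.18 on the NCI-H929 shSIRT6 arrays, against 10.14 and 10.12 on the MM1.S shSIRT6 arrays. With scramble it read 11.16 and 11.23 in NCI-H929, against 10.25 and 10.31 in MM1.S. All NCI-H929 arrays lay above all MM1.S arrays, by 1.07 ± 0.091 with shSIRT6 and 0.915 ± 0.091 with scramble (log2 difference ± SE, limma adjusted p = 0.000101 and 0.000212), a 2.10-fold and a 1.89-fold higher level.

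MRPS28, a small-subunit protein on the mRNA path that is counted with bacterial bS1, read 6.98 and 6.84 in NCI-H929 with shSIRT6, against 5.80 and 5.74 in MM1.S. With scramble the values were 6.87 and 6.77 in NCI-H929, against 6.18 and 6.01 in MM1.S. Its line difference was 1.14 ± 0.108 with shSIRT6 and 0.725 ± 0.108 with scramble (adjusted p = 0.000171 and 0.00143), and the arrays of the lines did not overlap. MRPS12, the homologue of uS12 at the decoding centre, read 7.04 and 6.68 in NCI-H929 with shSIRT6, against 6.44 and 6.22 in MM1.S. With scramble it read 7.19 and 7.18 in NCI-H929, against 6.48 and 6.34 in MM1.S. The differences were 0.53 ± 0.144 and 0.775 ± 0.144 (adjusted p = 0.0229 and 0.00411). The call with shSIRT6 was lost without MM1.S shSIRT6 replicate 2 (0.42, adjusted p = 0.12) and without NCI-H929 shSIRT6 replicate 1 (0.35, adjusted p = 0.113). These 2 genes stand in a group of 4 on the decoding centre and the mRNA path, which also holds MRPS2 and MRPS5. With scramble all 4 of its members were called higher in NCI-H929, at a median difference of 0.75, against 20.0% of the genes tested and a median of 0.03. With shSIRT6 2 of the 4 were, at a median of 0.4025, against 18.4% and a median of 0. The groups by place hold only genes named MRPL or MRPS, and roles were chosen with earlier results of these data known. Small-subunit proteins with other names were thus left out of this group. Among those, PTCD3 was called lower in NCI-H929 with both constructs, DAP3 higher with scramble alone, and CHCHD1 with neither. MRPS27, an RNA-binding protein of the pentatricopeptide repeat family, read 6.94 and 6.91 in NCI-H929 with shSIRT6, against 6.21 and 6.13 in MM1.S. With scramble it read 6.96 and 6.92 in NCI-H929, against 6.15 and 6.14 in MM1.S. The differences of 0.755 and 0.795 (SE 0.0905 each) left a wide gap between the arrays of the lines.

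In the large subunit, MRPL4, the homologue of uL4 that lines the peptide tunnel, read 8.03 and 8.07 in NCI-H929 with shSIRT6, against 7.48 and 7.46 in MM1.S. With scramble it read 8.12 and 8.31 in NCI-H929, against 7.20 and 7.03 in MM1.S. Its line difference was 0.58 ± 0.11 with shSIRT6 and 1.10 ± 0.11 with scramble (limma adjusted p = 0.00451 and 0.000216), or 1.49-fold and 2.14-fold. MRPL36, the homologue of bacterial bL36, read 6.55 and 6.67 in NCI-H929 with shSIRT6, against 5.80 and 6.07 in MM1.S. With scramble it read 6.87 and 6.75 in NCI-H929, against 5.82 and 5.83 in MM1.S. All NCI-H929 arrays were again above all MM1.S arrays, by 0.675 ± 0.12 and 0.985 ± 0.12.

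MRPL24, homologue of uL24 at the tunnel exit, was higher in NCI-H929 by 0.695 ± 0.132 with shSIRT6 and 0.81 ± 0.132 with scramble. MRPL10, homologue of uL10, which carries the stalk proteins, was higher by 0.79 ± 0.152 and 0.715 ± 0.152. Without NCI-H929 scramble replicate 1, which read 6.60 against 6.29 for replicate 2, the scramble difference of MRPL10 was 0.56 and missed the threshold (adjusted p = 0.0512). MRPL45, the protein that holds the ribosome to the inner membrane at the tunnel exit, was higher in NCI-H929 by 0.805 ± 0.0982 with shSIRT6 and 0.355 ± 0.0982 with scramble. MRPL45 and MRPL42 have pseudogenes with a row of their own, MRPL45P2 and MRPL42P5, and MRPS31 has MRPS31P5. MRPL20 and MRPL23 have antisense genes with rows of their own. Whether probes of these 5 members also read the copies or the opposite strand was not tested, so their values are uncertain.

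**Figure D2:**
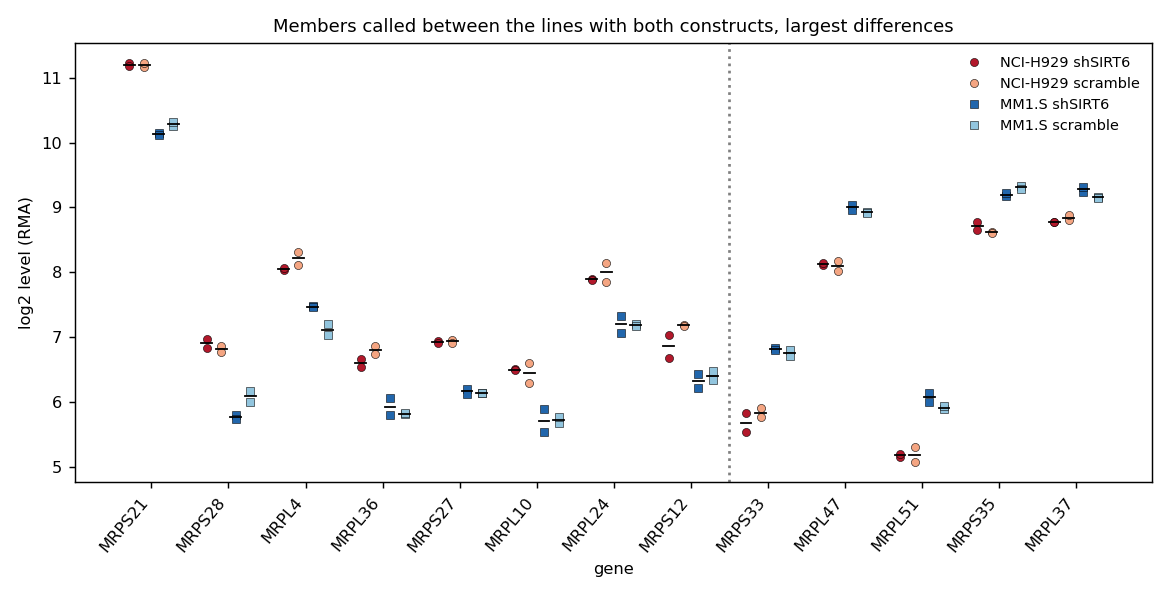
Log2 level (y axis) of the 8 highest and the 5 lowest members called in the same direction between the lines with both constructs (x axis), with 1 point per array, a bar at each group's mean, and the groups in the order NCI-H929 shSIRT6, NCI-H929 scramble, MM1.S shSIRT6 and MM1.S scramble. Left of the dotted line the NCI-H929 points (circles) lie above the MM1.S points (squares), and right of it below them, in each of the 13 genes.

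MRPS33, a protein of the small subunit's head found only in mitochondria, had the lowest line difference. It read 5.54 and 5.83 in NCI-H929 with shSIRT6, against 6.84 and 6.81 in MM1.S. With scramble it read 5.91 and 5.77 in NCI-H929, against 6.81 and 6.72 in MM1.S. The differences were -1.14 ± 0.123 with shSIRT6 and -0.925 ± 0.123 with scramble (limma adjusted p = 0.0003 and 0.000829), so the level in MM1.S was 2.20-fold and 1.90-fold that in NCI-H929. MRPL47, homologue of uL29 at the tunnel exit, read 8.12 and 8.14 in NCI-H929 with shSIRT6, against 9.04 and 8.96 in MM1.S. With scramble it read 8.18 and 8.02 in NCI-H929, against 8.93 and 8.92 in MM1.S. The differences were -0.87 ± 0.0988 and -0.825 ± 0.0988, and the arrays of the lines did not overlap.

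MRPL51, a large-subunit protein specific to mitochondria, was lower in NCI-H929, at -0.895 ± 0.113 with shSIRT6 and -0.725 ± 0.113 with scramble. MRPS35, a small-subunit protein specific to mitochondria, was lower, at -0.475 ± 0.094 and -0.695 ± 0.094. MRPL37, likewise specific to mitochondria, differed by -0.505 ± 0.0925 with shSIRT6 and -0.31 ± 0.0925 with scramble (adjusted p = 0.00384 and 0.0321). The scramble call of MRPL37 was lost on leaving out any 1 of the 4 scramble arrays, with adjusted p of 0.0755 to 0.162. It lay in the same direction on all 8 arrays, at 8.77 to 8.89 in NCI-H929 and 9.15 to 9.32 in MM1.S. In the plot of the members called with both constructs, these 5 genes stand right of the dotted line. The 9 small-subunit proteins specific to mitochondria held calls in both directions, with 4 higher and 3 lower with shSIRT6 and 1 higher and 2 lower with scramble. The share called thus changed with the construct, from 77.8% with shSIRT6, against 37.9% of the genes tested, to 33.3% with scramble, against 38.3%.

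Bacterial homologues and mitochondrion-specific proteins each held members called in both directions. With shSIRT6, 10 of the 41 homologues were higher in NCI-H929 and 5 lower (24.4% and 12.2%). Of the 29 specific proteins 10 were higher and 7 lower (34.5% and 24.1%). Of all genes tested 18.4% were called higher and 19.5% lower with shSIRT6. With scramble the counts were 15 and 3 for the homologues (36.6% and 7.32%), and 11 and 4 for the specific proteins (37.9% and 13.8%). The shares over all genes tested were 20.0% higher and 18.3% lower with scramble. Around the peptide exit, 3 of 8 members were called higher and 1 lower with shSIRT6, and 4 and 1 with scramble, with MRPL47 the lower one both times. In the small subunit's head 2 of 6 were higher and 1 lower with shSIRT6, and none higher and 1 lower with scramble, MRPS33 again being the lower one. In the central protuberance 3 of 7 were higher and 2 lower with shSIRT6, and 3 higher and 1 lower with scramble. These counts by place rest on 6 to 8 genes each and stand beside the same shares over all genes tested.

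The MRPS18 genes are paralogues of the family of bacterial bS18, with the MRPS18B protein in the small subunit and the MRPS18A protein in the large. MRPS18A read 7.86 and 7.83 in NCI-H929 with shSIRT6, against 7.95 and 7.99 in MM1.S, and the line difference was -0.125 ± 0.0922, with -0.075 ± 0.0922 with scramble. MRPS18B read 8.33 and 8.50 in NCI-H929 with shSIRT6, against 8.19 and 8.0 in MM1.S, and differed by 0.32 ± 0.122, with 0.165 ± 0.122 with scramble. None of these 4 differences was called (adjusted p = 0.0764 to 0.58). MRPS18B had 7 rows with the same values on every array, so they are 1 measurement. MRPS16 and MRPS2 had 2 rows each that gave line differences of the same sign, from -0.33 to -0.21 for MRPS16 and from 0.24 to 0.775 for MRPS2. The second row of MRPL44 had a mean of 2.465, under the filter level of 3.045, and did not show the difference of the first.

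Genes next to one another on a chromosome can differ together between cell lines, so each member was set beside its 5 nearest named and tested genes on either side, in the gene order of RefSeq (GRCh38.p14). With shSIRT6, a member's line difference and the median of its neighbours had r = 0.446 and rho = 0.336 over the 73 members. Over all genes tested these were 0.221 and 0.23. With scramble the members had r = 0.563 and rho = 0.518, beside 0.276 and 0.311 over all genes. The signs matched in 40 members (54.8%) with shSIRT6 and 49 (67.1%) with scramble, against 56.6% and 60.4% of all genes. Other members were left out of a member's neighbours, while the values over all genes left out no neighbour. These are descriptions, since the points share arrays and some members share neighbours. Copy number was not measured in these data.

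MRPS35 stood out in that all 10 of its neighbours were lower in NCI-H929 with both constructs, at a median of -0.9375 with shSIRT6 and -0.9075 with scramble, and 6 and 7 of them were called. The median of its neighbours was below its own difference. Of all genes tested 18.4% were called higher and 19.5% lower with shSIRT6, and 20.0% and 18.3% with scramble. Around MRPL51, which lies near CD27 and GAPDH, 10 of 10 neighbours were lower with shSIRT6 and 8 of 10 with scramble, at medians of -0.555 and -0.23. Around MRPL47 7 and 8 of 10 were lower, at medians of -0.5625 and -0.395. Around MRPL4 5 neighbours were called higher and 3 lower with shSIRT6 and 6 and 2 with scramble, at medians of 0.485 and 0.7725. Around MRPL52 10 of 10 were higher with shSIRT6 and 9 of 10 with scramble, at medians of 0.68 and 0.6375. With each construct 6 of them were called higher and 0 lower. Around MRPS28 8 of 10 were higher with each construct, at medians of 0.45 and 0.325, with 5 called higher and 2 lower. The medians around MRPS33 were 0.0075 and -0.055, and those around MRPL10 -0.145 and -0.06, so neither followed its member in size. Single neighbours of MRPS33 did differ, with 1 called higher and 3 lower with shSIRT6, and 0 higher and 4 lower with scramble. Of the neighbours of MRPL10, 0 were called higher and 3 lower with shSIRT6, and 0 either way with scramble. Of the 16 members called higher with both constructs, the neighbours' median was above 0 for 10 with shSIRT6 and 14 with scramble, and of the 5 called lower it was below 0 for 4 and 5. The same count was not made over all called genes.

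**Figure D3:**
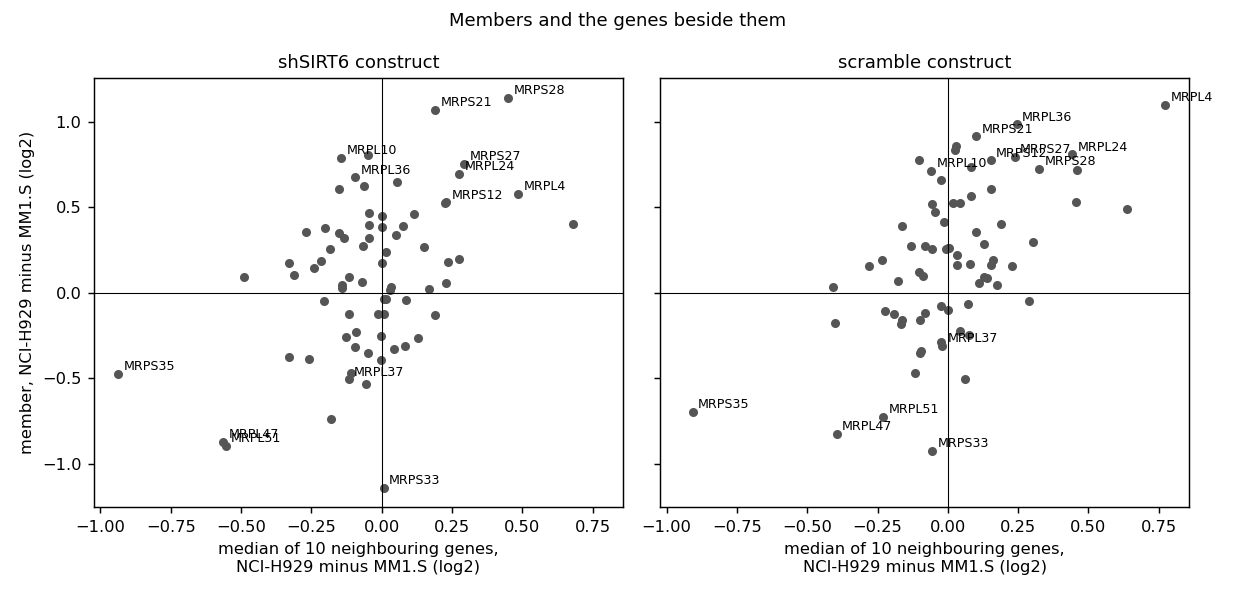
Line difference of each of the 73 members (y axis, NCI-H929 minus MM1.S, log2) against the median difference of its 10 neighbouring genes (x axis, log2), with the shSIRT6 construct on the left and scramble on the right. MRPS35, MRPL47 and MRPL51 lie at the lower left with their neighbours below 0 in both panels, while MRPS33 lies low with a neighbour median near 0 (0.0075 and -0.055).

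The hairpin differences of the members, shSIRT6 minus scramble, spanned -0.335 to 0.17 in NCI-H929 and -0.465 to 0.355 in MM1.S, a narrower range than the line differences. In NCI-H929 no member passed the test, with 6 at an unadjusted p below 0.05, all of them lower with shSIRT6. In that comparison 0.0236% of the genes tested passed. The unadjusted threshold was met by 14.5% of them, and by 9.75% with a lower level in shSIRT6. The shSIRT6 arrays lay above the scramble arrays in 6 members and below them in 32, against 16.6% and 30% of the genes tested. In MM1.S no member passed either, with 9 at an unadjusted p below 0.05, of which 4 were higher and 5 lower with shSIRT6, beside 1.33% of all genes called and 19.6% at the unadjusted threshold (8.25% higher and 11.3% lower). There the arrays lay above in 23 members and below in 19, against 24.4% and 26.3% of the genes tested. The median difference over the members was -0.095 in NCI-H929, against -0.045 over all genes tested, and 0.005 in MM1.S, the same as over all genes. The SE of a member's difference had a median of 0.108. With an empirical Bayes fit that lets the variance follow the level, 3 members were called in MM1.S, MRPL4 (0.355, adjusted p = 0.0338), MRPL45 (-0.31, adjusted p = 0.0126) and MRPS9 (-0.36, adjusted p = 0.0423), beside 7.48% of all genes, and none in NCI-H929, beside 1.52%.

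In NCI-H929, 54 of the 73 members had a lower mean with shSIRT6 than with scramble, against 58.1% of all genes tested. By subunit these were 41 of 50 in the large and 13 of 23 in the small. The count was 40 under quantile normalization and under cyclic loess, against 51.4% and 55.4% of all genes, and 60 with each array centred on its median, against 66.7%. The members' median difference was -0.0112 under quantile normalization, against -0.0066 over all genes, and -0.0166 under cyclic loess, against -0.0238. With median centring it was -0.145, against -0.095. Relative to all genes, the members' median was thus lower as reported and with median centring, slightly lower under quantile normalization and slightly higher under cyclic loess. The 7 members of the central protuberance all had a negative difference, at a median of -0.17, the lowest being MRPL48 at -0.335 and the highest MRPL18 at -0.005. The 5 members of the stalk and its base had a median of -0.265, 4 of them negative. Differences were also negative in 75% of the 8 members around the peptide exit and 66.7% of the 6 in the head. In the 4 members of the decoding centre and the mRNA path the share was 50%. Values by place were not computed under the other normalizations. In the same comparison T and NK cell markers had positive differences in 5 of 5 genes tested, at a median of 0.275 and a mean level over the list of 4.56 to 4.57 with shSIRT6, against 4.22 to 4.35 with scramble. Epithelial markers had them in 4 of 4, at a median of 0.2225 and a mean level of 5.15 to 5.5 with shSIRT6, against 5.095 to 5.145 with scramble. Stromal markers were positive in 1 of 2 tested and monocyte markers in 1 of 4. None of these markers was called in NCI-H929, and their part in the members' values was not tested. In MM1.S no epithelial marker had a negative difference either. Their mean level there was 5.17 to 5.33 with shSIRT6, against 5.03 to 5.125 with scramble. Of the T and NK cell markers, 40% were negative in MM1.S.

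The lowest p among the members in NCI-H929 belonged to MRPL53, a stalk-base protein specific to mitochondria. It read 8.21 and 8.25 with shSIRT6, against 8.50 and 8.59 with scramble, arrays that did not overlap, at a difference of -0.315 (95% interval -0.557 to -0.0731, limma adjusted p = 0.27). MRPL38, of the central protuberance, read 6.79 and 6.81 with shSIRT6, against 7.10 and 7.12 with scramble, at -0.31 ± 0.116 (adjusted p = 0.298). MRPS14, homologue of uS14 in the head, read 7.56 and 7.41 with shSIRT6, against 7.77 and 7.71 with scramble, at -0.255 ± 0.0983 (adjusted p = 0.312). On the positive side the lowest p were those of MRPL45 (0.14 ± 0.0982), MRPS22 (0.17 ± 0.126) and MRPS10 (0.10 ± 0.0885), with adjusted p of 0.54 to 0.63.

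In MM1.S the lowest p belonged to MRPS9, homologue of uS9 in the head. It read 6.91 and 6.96 with shSIRT6, against 7.40 and 7.19 with scramble, at a difference of -0.36 (95% interval -0.613 to -0.107, limma adjusted p = 0.142). MRPS31, also of the head, read 5.79 and 5.83 with shSIRT6, against 6.22 and 6.33 with scramble, at -0.465 ± 0.141 (adjusted p = 0.144). MRPL45 read 8.76 and 8.83 with shSIRT6, against 9.18 and 9.03 with scramble, at -0.31 ± 0.0982 (adjusted p = 0.154). In these 3 genes the shSIRT6 arrays lay below the scramble arrays. On the other side, MRPL4 read 7.48 and 7.46 with shSIRT6, against 7.20 and 7.03 with scramble, at 0.355 ± 0.11 (adjusted p = 0.148). MRPS2, homologue of uS2, read 6.12 and 5.94 with shSIRT6, against 5.73 and 5.71 with scramble, at 0.31 ± 0.108 (adjusted p = 0.182), and MRPL14, homologue of uL14, differed by 0.27 ± 0.11. Of the 5 groups by place on the ribosome, head proteins had the lowest median in MM1.S, -0.19 over 6 members, of which 3 had an unadjusted p below 0.05.

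Averaged over both lines, no member was called, beside 0.0864% of the genes tested, and 2 had an unadjusted p below 0.05, against 21.3% of all genes. Both were lower with shSIRT6, as were 13.6% of all genes at that p. These were MRPS14, at -0.2475 ± 0.0695 (limma adjusted p = 0.122), and MRPS9, at -0.2575 ± 0.0765 (adjusted p = 0.135). They were also the only 2 members in which both shSIRT6 arrays lay below both scramble arrays in each line (2.74% of the members, against 10.5% of the genes tested). MRPS14 read 7.75 and 7.74 with shSIRT6 in MM1.S, against 8.02 and 7.95 with scramble, and MRPS9 read 7.45 and 7.35 with shSIRT6 in NCI-H929, against 7.59 and 7.52 with scramble. MRPL16, homologue of uL16, was the 1 member with the shSIRT6 arrays above in each line (against 4.99%). In NCI-H929 it read 8.07 and 8.01 with shSIRT6, against 7.94 and 7.96 with scramble. Its MM1.S levels were 7.95 and 7.92 with shSIRT6, against 7.81 and 7.89 with scramble. With the variance following the level, MRPS14 and MRPS9 were called (adjusted p = 0.0269 and 0.0428), beside 7.15% of all genes. The members' median of -0.0475 turned positive under quantile normalization (0.0284) and cyclic loess (0.0031).

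The hairpin differences of the members in the 2 lines, which share no array, had Pearson's r = -0.236 and Spearman's rho = -0.248 over the 73 genes, beside 0.163 and 0.191 over all genes tested. They had the same sign in 25 members (34.2%), against 56.1% of all genes. In 12 members (16.4%) the shSIRT6 arrays lay below scramble in NCI-H929 and above it in MM1.S, against 6.24% of the genes tested, and in 3 members the reverse held (against 2.82%). No member's difference between the lines in hairpin effect was called, beside 0.204% of the genes tested, and 10 members had an unadjusted p below 0.05, against 13.8%. Of the 10, 3 were higher and 7 lower, against 5.73% and 8.11% of all genes. The median of that difference, NCI-H929 minus MM1.S, was -0.13 over the members and -0.035 over all genes. The lowest p were those of MRPS2 (-0.535 ± 0.153, limma adjusted p = 0.226), MRPL4 (-0.52 ± 0.155, adjusted p = 0.235) and MRPL45 (0.45 ± 0.139, adjusted p = 0.246). With the variance following the level, MRPL45 and MRPL4 were called (adjusted p = 0.0191 and 0.0481), beside 3.38% of all genes. The MRPL4 difference was 0.58 with shSIRT6 and 1.10 with scramble, and the MRPL45 difference was 0.805 with shSIRT6 and 0.355 with scramble.

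**Figure D4:**
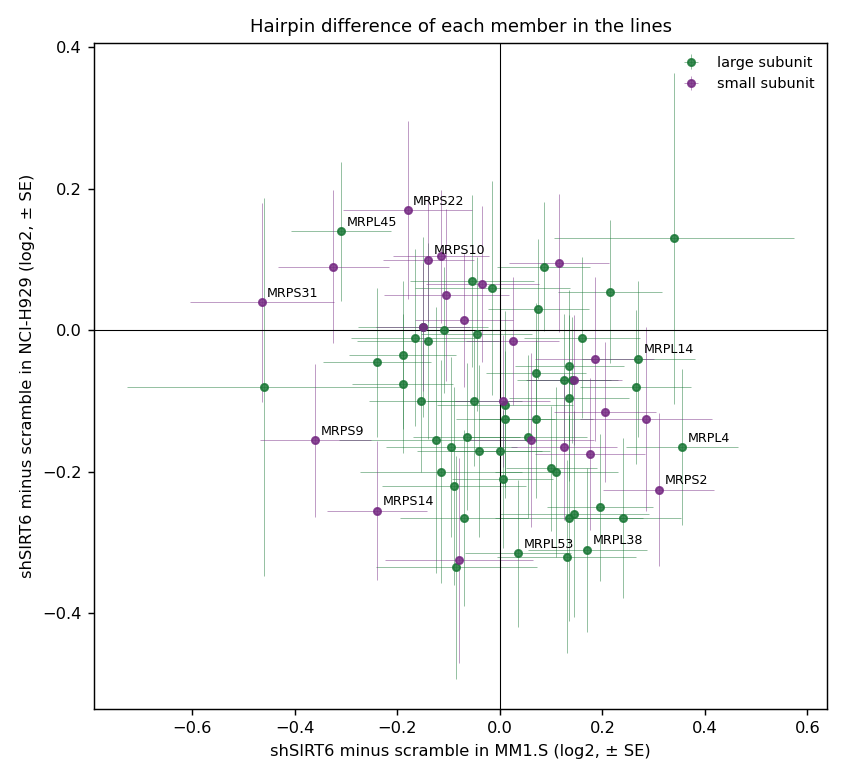
Difference between shSIRT6 and scramble in NCI-H929 (y axis, log2) against that in MM1.S (x axis, log2) for each of the 73 members, coloured by subunit, with bars of 1 SE in each direction. Most points lie below 0 on the y axis and on both sides of 0 on the x axis, with MRPS14 and MRPS9 at the lower left and MRPL45 at the upper left.

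Other genes of mitochondrial gene expression were described from lists drawn up alongside the members. Of 24 tested genes for ribosome assembly and rRNA modification, 9 were higher and 4 lower in NCI-H929 with shSIRT6, and 12 higher and 4 lower with scramble. These were 37.5% higher and 16.7% lower with shSIRT6, against 18.4% and 19.5% of all genes tested, and 50% higher and 16.7% lower with scramble, against 20.0% and 18.3%. RBFA, an assembly factor of the small subunit, was higher by 0.83 ± 0.128 with shSIRT6 and 1.145 ± 0.128 with scramble, and MTERF3, which acts in mitochondrial transcription and ribosome assembly in mice, by 1.05 ± 0.12 and 0.91 ± 0.12. TRMT2B, a methyltransferase of mitochondrial RNA, was lower, at -1.03 ± 0.105 and -0.675 ± 0.105. Of 12 translation factors and membrane partners, 4 were higher (33.3%) and none lower with shSIRT6, and 3 higher (25%) and 2 lower (16.7%) with scramble. Among them SLIRP, which stabilises mitochondrial mRNA, was higher by 1.065 and 1.255, and OXA1L, the inner-membrane insertase that receives nascent chains from the ribosome, by 0.795 and 0.975. The release factor MTRF1 differed by -0.165 with shSIRT6, which was not called, and was lower, at -0.57 with scramble.

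Of 14 genes of mitochondrial transcription and RNA processing, 3 were higher (21.4%) and 1 lower (7.14%) with each construct, the share higher being close to that of all genes tested (18.4% with shSIRT6 and 20.0% with scramble). GRSF1, of the mitochondrial RNA granules, was higher in NCI-H929 by 1.155 and 1.195, and FASTKD3, which acts on mitochondrial mRNAs, by 1.385 and 0.88. MTERF1, which binds mitochondrial DNA past the rRNA genes, read 3.18 and 3.43 in NCI-H929 with shSIRT6, against 5.39 and 5.25 in MM1.S, and 2.76 and 3.71 in NCI-H929 with scramble, against 5.60 and 6.20 in MM1.S. It was called lower with both constructs, but its NCI-H929 levels lay around the filter level of 3.045 and below the array medians, so the size of the difference is not given. Of 22 import genes, 6 were higher (27.3%) and 4 lower (18.2%) with shSIRT6, and 9 higher (40.9%) and 3 lower with scramble. Among them TIMM23, the channel of the inner membrane, was lower, at -1.15 and -1.015, and TIMM9, a chaperone of the space between the membranes, was higher by 1.07 and 0.94. Among 3 small-subunit proteins with other names, PTCD3 was lower, at -0.335 and -0.57, DAP3 was called higher with scramble alone (0.38), and CHCHD1 was not called with either construct. No gene of these 5 lists was called in any of the 4 hairpin comparisons. In NCI-H929, 21 of the 24 assembly genes had a negative hairpin difference, at a median of -0.1375, with 5 (20.8%) at an unadjusted p below 0.05, against 58.1% of all genes tested with a negative difference, a median of -0.045 and 14.5% at that p. The count was 15 of 24 under quantile normalization (median -0.0467) and under cyclic loess (median -0.0641), against 51.4% and 55.4% of all genes, and 21 with median centring, against 66.7%.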

How the data were processed

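RNA from 8 samples (2 lines, 2 constructs, 2 arrays per group) was read on whole-transcript gene arrays. The deposited values are log2 levels that the submitters made with RMA in the Transcriptome Analysis Console on build hg19, per the submitters' processing notes (RMA variant and program version: not given in the sources used here). Of 48226 rows, 16098 had 1 gene symbol in the platform annotation and the other 32128 were left unnamed. For each gene the row of highest mean was kept, and 12734 genes were tested, those whose mean passed 3.045, the level below which 30% of all rows lie. Group means were fitted over all 8 arrays with limma 3.58.1 in R 4.3.3 (lmFit, eBayes, Benjamini-Hochberg over all genes tested, 4 residual and 3.43 prior degrees of freedom), and the scripts were tested on simulated data. Members called are those at an adjusted p below 0.05. An exact permutation of 2 against 2 arrays cannot go below a two-sided p of 0.333, so none was used. Named were the members called in the same direction with both constructs, up to 8 each way, for each hairpin contrast the 3 lowest p each way, the MRPS18 family, genes with several rows, and up to 3 called genes per other list. Members, roles and lists were chosen with earlier results of these data known. The number of arrays limits the precision. Alternatives were the row chosen per gene, the filter, normalization, variance model, arrays in the fit, the replicate number as a block, and leaving out each array.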

Additional observations from a re-analysis of the deposited data

Results flagged for a closer look

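In 15 members the shSIRT6 and scramble arrays separated in opposite directions in the 2 lines, and the difference of the hairpin effect, NCI-H929 minus MM1.S, was tested for each with the interaction contrast of the limma fit. In 12 the shSIRT6 arrays lay below scramble in NCI-H929 and above it in MM1.S: MRPS2 (-0.535), MRPL4 (-0.52), MRPL23 (-0.505), MRPL27 (-0.445), MRPS15 (-0.35), MRPL2 (-0.345), MRPS7 (-0.32), MRPL57 (-0.295), MRPS11 (-0.29), MRPS34 (-0.215), MRPS30 (-0.21) and MRPL37 (-0.195). In 3 the reverse held, MRPL45 (0.45), MRPS10 (0.24) and MRPS35 (0.22). None of the 15 differences was called, and the lowest adjusted p was 0.226, for MRPS2. The same array patterns held in 6.24% and 2.82% of all genes tested.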

How the results depend on the processing

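Over 19 alternatives, no value of a named member reversed its direction, and 915 of 938 kept their side of the threshold. Letting the variance follow the level gave 3 called members for the hairpin in MM1.S, 2 for its mean over both lines (MRPS14 and MRPS9) and 2 for its difference between lines (MRPL45 and MRPL4). With robust estimation added, these were 3, 2 and 1. Under every other alternative, including each array left out (0 to 0), no member was called in these or in NCI-H929. The line comparison called 22 to 31 members with shSIRT6 and 23 to 31 with scramble when 1 array was left out, and 22 to 42 and 29 to 42 under the other alternatives. Lost calls were MRPL37 with scramble in 6 of 19 alternatives, MRPS12 with shSIRT6 in 3 and MRPL10 with scramble in 1. The replicate numbers did not pair the arrays: deviations of same-numbered arrays correlated at -0.041 to 0.077 between groups. With the replicate number as a block, 34 members were called with shSIRT6, 32 with scramble and 0 in the hairpin contrasts. Where leaving out an array left a group with 1 array, that array was taken to vary like the other groups. The cause of these changes was not tested. With 2 arrays per group, small changes of the members were not detectable at this precision. In the simulated data, a log2 change of 0.5 was called in 7.46% of 67 changed genes for NCI-H929 and 13.4% of 67 for MM1.S. A change of 1 was called in 79.1% and 74.6%. No member's hairpin difference in either line reached 0.5 in size, so the lack of calls does not show a lack of change.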
